A study of Eucalyptus grandis
Pisolithus microcarpus and Eucalyptus grandis with 23 samples.

Results

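Neighbouring genes whose transcript levels rose and fell together were sought in roots of Eucalyptus grandis, a eucalypt tree, and 8 runs of such neighbours were described, holding 26 of the 36376 genes in the deposited tables. A run was chosen by measured values. Genes with a mean of at least 5 CPM (reads per 1000000 gene reads of the library) over 23 libraries, and with at least 0.9 of their reads assigned to 1 gene only, were kept and sorted by ID. A run is a stretch of at least 3 consecutive kept genes with the same letter in the ID, with ID numbers at most 5 apart, in which every adjacent pair had a Pearson correlation (r) of log2(CPM + 1) of at least 0.85. Of the 17292 genes that reached the CPM minimum, 2695 failed the read uniqueness minimum, so 14597 genes were kept, and the members are 0.178% of these. The correlations that chose the members are given below as a description, without a test.

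Neighbouring genes of a plant genome can vary together for several known reasons. Copies that arose by tandem duplication often keep similar promoters, neighbours can lie in the same stretch of open or closed chromatin, and some plants hold clusters of adjacent biosynthetic genes. The Eucalyptus grandis genome is known for many tandem duplicates. In its gene IDs the letters A to K stand for the chromosomes and L for unplaced scaffolds, and the numbers follow the order of genes along them. The files give no coordinates and pair no ID with a gene name, and 0 of the 36376 IDs matched the reference table used here. The members are therefore given by ID, without function, position or sequence, and no tissue marker was looked up.

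Seedlings that were 1 month old were grown in Petri dishes for 1 further month, per the labels' protocols. They stayed without fungus, grown axenically (control roots), or had mycelium of the ectomycorrhizal fungus Pisolithus microcarpus, strain SI-9 or SI-12, laid on the root. Such fungi wrap fine roots in a mantle and grow between their outer cells. The air held 400 or 650 ppm CO2 throughout. There were 6 control libraries at 400 ppm, 5 control libraries at 650 ppm, and 3 libraries for every combination of strain and CO2. Gene reads per library ranged from 4497662 to 30210474, so 3 reads correspond to 0.0995 to 0.683 CPM. Whole roots were sequenced, so fewer cells of a type and less RNA per cell cannot be told apart.

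Several libraries of a group were near-identical, and some stood apart. By the coefficient of variation beyond counting noise, libraries fell into 10 sets, with values up to 0.152 inside a set and from 0.219 to 0.374 between sets of the same group. Control libraries 1 to 3 and 4 to 6 at 400 ppm formed separate sets, as did control libraries 1 and 2 and libraries 3 to 5 at 650 ppm. SI-9 library 2 at 400 ppm differed from its group by 0.219 to 0.225, and SI-9 library 3 at 650 ppm from its group by 0.366 to 0.374. Each SI-12 group was 1 set. The labels call the libraries of a group biological replicates, yet libraries inside a set differed by little, so counts of calls are given also with each set summed as 1 replicate. There a group with 1 set is assumed to vary like the other groups, and CO2 in SI-12 roots sets 1 set against 1 set. All SI-9 libraries carry deposited numbers from 1 to 12 and all SI-12 libraries numbers from 13 to 24, while the controls fall in both ranges. The fungal strain and the number range therefore cannot be told apart, and values against controls of the same range are given where a result of the members lost its call, reversed or moved by over 1.5 times in them.

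The 8 runs lie on 6 of the letters. Letter I holds 3 of them, and A, F, H, J and K hold 1 each. A run of 4 genes starts at Eucgr.I01187.1 (with Eucgr.I01189.1, Eucgr.I01191.1 and Eucgr.I01192.1) and another at Eucgr.K00906.1 (with Eucgr.K00907.1, Eucgr.K00908.1 and Eucgr.K00909.1). The runs of 3 genes are Eucgr.A02908.1, Eucgr.A02910.1 and Eucgr.A02911.1; Eucgr.F01519.1, Eucgr.F01523.1 and Eucgr.F01525.1; Eucgr.H04016.1, Eucgr.H04018.1 and Eucgr.H04019.1; Eucgr.I01442.1, Eucgr.I01444.1 and Eucgr.I01445.1; Eucgr.I01709.1, Eucgr.I01714.1 and Eucgr.I01715.1; and Eucgr.J00211.1, Eucgr.J00214.1 and Eucgr.J00215.1. Each run is called below by its first gene. No run had 5 genes or more, and none lay on L.

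Strong correlation between neighbours was rare. Among 12911 neighbouring pairs of kept genes within the ID gap, the median r was 0.0617, and 159 pairs (1.23%) reached 0.85. Of these, 141 stood alone as pairs and 18 made up the runs, so that 10 of 11630 triplets of neighbours had both pairs linked. The share of pairs at or above 0.85 was highest between direct neighbours. It was 1.23% for direct neighbours, 0.398% at 2 positions, 0.275% at 3 and 0.149% at 100 positions apart. The first value is counted here over 14585 pairs without the limit on the ID gap. The whole distribution moved far less, since the median r was 0.0600 at 1 position and 0.00846 at 100.

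**Figure D1:**
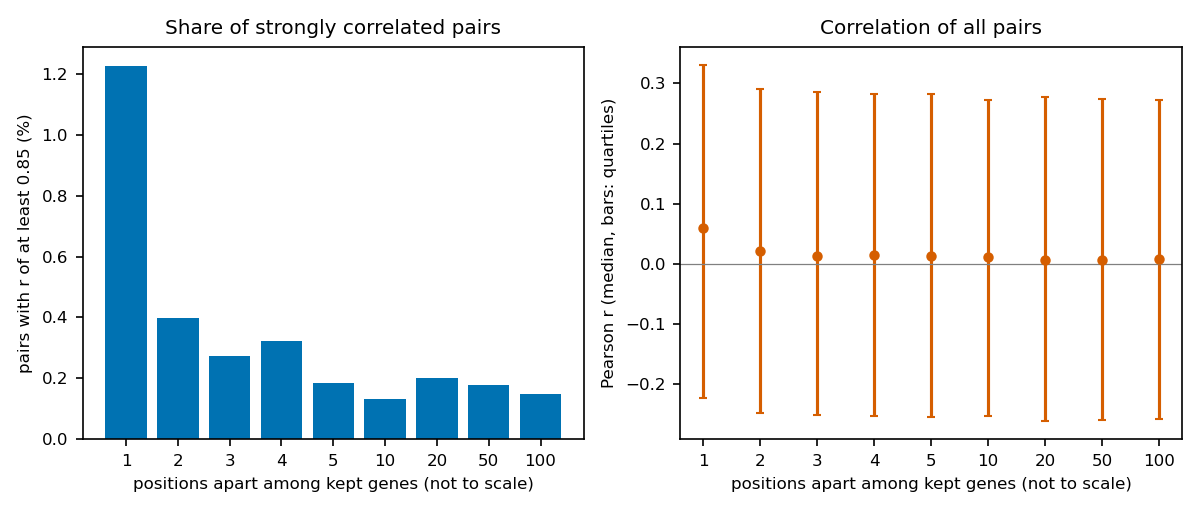
Left, the share (%) of pairs of kept genes whose Pearson r of log2(CPM + 1) over 23 libraries was at least 0.85, by the number of positions between them in the sorted list. Right, the median r (points) with the quartiles (bars). The share is 1.23% for direct neighbours and 0.149% at 100 positions, while the medians all lie between 0.00545 and 0.0600.

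The highest adjacent r was 0.99, between Eucgr.J00211.1 and Eucgr.J00214.1, followed by 0.981 between Eucgr.I01187.1 and Eucgr.I01189.1. Both pairs of the Eucgr.I01442.1 run, at 0.979 and 0.978, and both of the Eucgr.F01519.1 run, at 0.968 and 0.960, were also among the highest. The members just inside the threshold were Eucgr.H04016.1 with Eucgr.H04018.1 at 0.869, Eucgr.A02910.1 with Eucgr.A02911.1 at 0.876, and Eucgr.I01714.1 with Eucgr.I01715.1 at 0.879. Just outside it, and so not in a run, Eucgr.C02627.1 with Eucgr.C02631.1 stood at 0.843, Eucgr.H00856.1 with Eucgr.H00858.1 at 0.842 and Eucgr.G03200.1 with Eucgr.G03202.1 at 0.840. The members nearest above the CPM minimum were Eucgr.J00215.1 (mean 5.61 CPM), Eucgr.I01709.1 (5.88) and Eucgr.A02911.1 (6.85).

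Much of the correlation lay between the 6 groups. When the group mean was subtracted from each library, the median r of the 18 adjacent pairs went from 0.929 to 0.575, and 3 pairs stayed at 0.85 or above. These were Eucgr.F01519.1 with Eucgr.F01523.1 (0.905), Eucgr.I01187.1 with Eucgr.I01189.1 (0.894) and Eucgr.I01709.1 with Eucgr.I01714.1 (0.861). The lowest value was -0.0924, for Eucgr.J00214.1 with Eucgr.J00215.1. Values after the subtraction still carry the differences between near-identical sets of a group, so they do not describe independent libraries. Over the means of the 10 near-identical sets, 17 of the 18 pairs reached 0.85. Without both SI-9 libraries that stood apart, all 18 did. The rule finds 11 runs with 35 genes there, including all 26 members.

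The pairs differed most in the control roots taken alone. There 10 of 18 pairs were at or above 0.85, and all pairs of the Eucgr.A02908.1, Eucgr.F01519.1, Eucgr.I01442.1, Eucgr.I01709.1 and Eucgr.J00211.1 runs were among them. The Eucgr.I01187.1 run had no pair at 0.85 there, with r = -0.814 between Eucgr.I01189.1 and Eucgr.I01191.1, whereas the same pair had r = 0.996 over the 12 mycorrhizal libraries. These 2 genes varied little in control roots, from 44.1 to 62.9 CPM and from 5.94 to 13.2 CPM. In mycorrhizal roots they ran from 34.3 to 309 CPM and from 2.41 to 152 CPM. Conversely, Eucgr.J00214.1 with Eucgr.J00215.1 had r = 0.975 in control roots and -0.0460 in mycorrhizal roots. In the Eucgr.K00906.1 run the pairs ranged from 0.0805 to 0.703 in control roots and from 0.911 to 0.943 in mycorrhizal roots. Several ranges of level were narrow and some read counts low. An r within control or mycorrhizal roots therefore also carries small differences between sets and counting noise. Whether co-variation differed between control and mycorrhizal roots was not tested. Libraries numbered 1 to 12 gave 16 pairs at or above 0.85 and libraries numbered 13 to 24 gave 17.

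**Figure D2:**
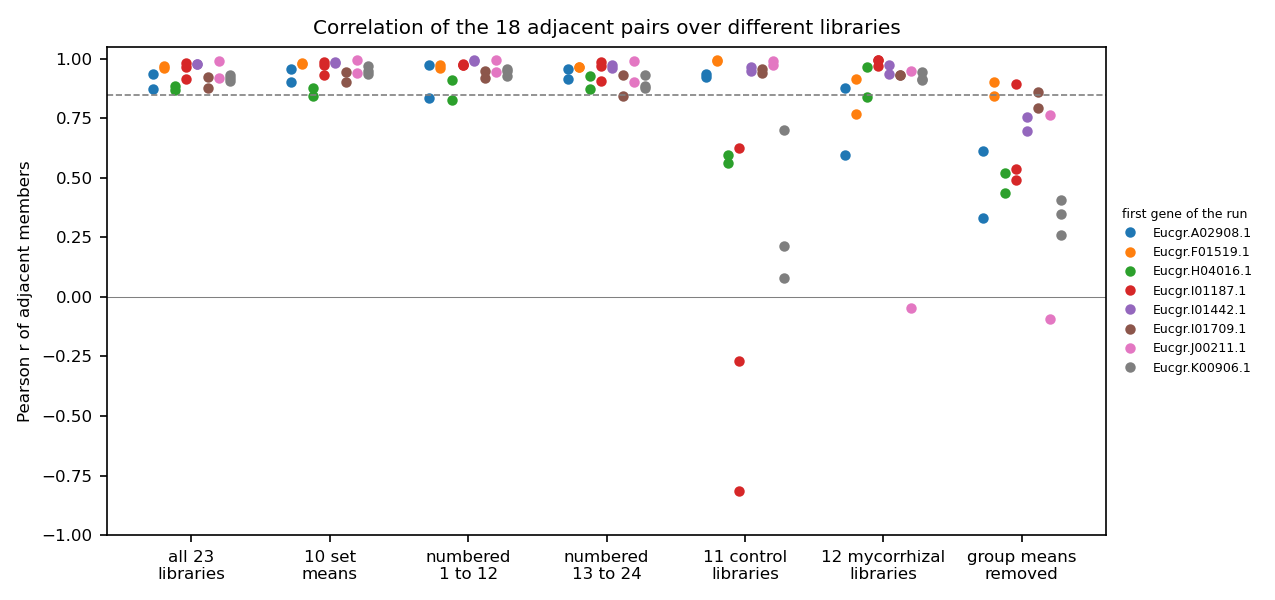
Pearson r of log2(CPM + 1) for the 18 adjacent member pairs (1 point each, coloured by run) over all 23 libraries, the means of the 10 near-identical sets, each range of library numbers, the 11 control libraries, the 12 mycorrhizal libraries, and all libraries after subtracting group means. The dashed line marks 0.85, which 18 pairs reach over all libraries by the choice of the runs and 3 reach after the group means are removed.

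Gene length was not used by the rule, and adjacent members were closer in length than neighbouring genes in general by their medians. The shorter gene of a pair had a median of 0.859 of the length of the longer one in the 18 adjacent pairs, against 0.723 in the 141 linked pairs outside the runs and 0.637 in all neighbouring pairs. Lengths within 0.9 of each other were found in 8 of the 18 pairs (44.4%) and in 13.2% of all neighbouring pairs. The genes of the Eucgr.K00906.1 run were 496, 476, 509 and 502 bases long, and those of the Eucgr.I01709.1 run 2430, 2435 and 2554. Lengths were furthest apart in the Eucgr.F01519.1 run, where Eucgr.F01523.1 had 287 bases and Eucgr.F01525.1 had 1804. Eucgr.J00214.1 with Eucgr.J00215.1 (0.585) and Eucgr.I01442.1 with Eucgr.I01444.1 (0.634) also lay below the median of all neighbouring pairs. Adjacent pairs share genes, so they are not independent and no test was made.

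Levels within a run could differ widely although the patterns matched. Per length, as CPM per 1000 bases averaged over 23 libraries, Eucgr.A02910.1 stood at 126 and its neighbours Eucgr.A02908.1 and Eucgr.A02911.1 at 8.15 and 4.41. Eucgr.I01444.1 stood at 129 beside 39.5 and 13.5 in its run. The Eucgr.F01519.1 run was even, with 32.8, 34.3 and 30.3 CPM per 1000 bases, and so was the Eucgr.K00906.1 run, between 14.8 and 20.7. Members were lower in read level than kept genes in general, with a median mean of 12.96 CPM against 29.4 CPM. Their values spread more, as a threshold on r favours, with a median SD of log2(CPM + 1) of 0.974 against 0.298.

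Reads could in part be shared between similar genes. The share of reads assigned to 1 gene only ran from 90.8% for Eucgr.H04019.1 and 91.4% for Eucgr.K00907.1 to 99.9% for Eucgr.H04018.1 and Eucgr.J00215.1. When the correlations were recomputed from those reads alone, the same 8 runs with 26 genes were found. With a required share of 0.99 instead of 0.9, 1 run of 3 genes was left, the Eucgr.I01187.1 run without its first gene.

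The ID numbers of the runs skip genes that the rule did not keep. The tables list 14 such genes inside the runs, of which 13 had under 5 CPM on average and 1 had too few uniquely assigned reads. Eucgr.H04017.1 missed the minimum narrowly at 4.97 CPM, and its r with the mean of the Eucgr.H04016.1 run was 0.946. Eucgr.I01712.1, at 3.04 CPM, had r = 0.922 with the mean of the Eucgr.I01709.1 run. Eucgr.I01443.1, at 93.6 CPM and with 77.0% uniquely assigned reads, had r = 0.188 with the mean of the Eucgr.I01442.1 run that surrounds it. A minimum of 1 CPM in place of 5 gave 21 runs with 69 genes, which held 23 of the 26 members, and lengthened the Eucgr.K00906.1 run to 5 genes by adding Eucgr.K00905.1.

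Beyond the ends of the runs, within 5 ID numbers, 36 kept genes had a median r of 0.302 with the run mean, from -0.559 to 0.919. The highest were Eucgr.H04012.1 at 0.919 and Eucgr.H04013.1 at 0.903, both beside the Eucgr.H04016.1 run, and Eucgr.A02912.1 at 0.867 beside the Eucgr.A02908.1 run. At the other end, Eucgr.H04021.1 stood at -0.559 on the far side of the Eucgr.H04016.1 run. The nearest kept genes on either side of the Eucgr.H04016.1 run thus differed in the sign of r.

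Genes far from a run could follow its mean closely, and the r of members with their own run mean was not computed. Among kept genes elsewhere, 241 had r of at least 0.85 with the mean of the Eucgr.J00211.1 run, led by Eucgr.F00223.1 (0.984), Eucgr.G02098.1 (0.981) and Eucgr.J00814.1 (0.979), each over 23 libraries. The Eucgr.K00906.1 run had 36 such genes, led by Eucgr.J02129.1 (0.944), Eucgr.A01572.1 (0.920) and Eucgr.B02404.1 (0.919). For the Eucgr.I01187.1 run there were 50, and the first 2 were themselves neighbours on the same letter, Eucgr.I01800.1 (0.952) and Eucgr.I01801.1 (0.946), followed by Eucgr.F00356.1 (0.946). For the Eucgr.H04016.1 run the closest of 46 was Eucgr.H04003.1 (0.943), with an ID number close to the run.

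The means of the Eucgr.J00211.1, Eucgr.I01442.1 and Eucgr.A02908.1 runs followed each other with r from 0.831 to 0.860 over 23 libraries, and each ran against the Eucgr.F01519.1 run, with r of -0.880, -0.723 and -0.814. The Eucgr.H04016.1 and Eucgr.K00906.1 runs had r = 0.780, and the Eucgr.I01442.1 and Eucgr.K00906.1 runs r = 0.749. These are descriptions over libraries that share groups and near-identical sets.

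Group differences were tested with edgeR's quasi-likelihood test on all 27386 genes with enough reads, with Benjamini-Hochberg adjustment at 0.05. Since the rule picks genes that vary strongly over the same libraries, the counts of members called are set beside the share of all genes called and nothing about neighbours is read from them. Elevated CO2 changed 20 of the 26 members in control roots, 9 upward and 11 downward. Over all genes tested, 42.5% were called, 20% upward and 22.5% downward. The members' median log2 fold change was -0.0134 and that of all genes -0.0277. With the near-identical sets as replicates, edgeR called 2 members (1.45% of all genes) and DESeq2 called 16 (11.5%), while 16 had an unadjusted p under 0.05 in edgeR. The edgeR fits to sets tested 30216 genes and the DESeq2 fits 27386. The share of all genes with an unadjusted p under 0.05 is not given, here or below, so those counts are no result about the members. DESeq2's default Wald test treats the spread as known, while edgeR's test allows for how few the sets are. DESeq2 called more of all genes than edgeR in every comparison on sets, so a call kept there by DESeq2 alone is weak support.

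Against control roots at 400 ppm, 16 members were called in SI-9 roots, 15 higher and 1 lower, with 23.1% of all genes called (11.3% higher and 11.8% lower). With SI-12 the count was 17, of which 14 were higher and 3 lower, with 32.3% of all genes called (14.5% higher and 17.8% lower). The members' median log2 fold changes were 0.97 and 0.55, against -0.00671 and -0.0386 over all genes. With sets as replicates, edgeR called 0 members in either comparison, as of all genes (0% in both). DESeq2 called 11 and 12 members there (4.35% and 5.23% of all genes), while 14 and 15 had an unadjusted p under 0.05 in edgeR.

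Against control roots at 650 ppm, 24 members were called in SI-9 roots, 18 higher and 6 lower, and 20 in SI-12 roots, 14 higher and 6 lower. The shares of all genes called were 36.5% (19.3% higher and 17.2% lower) and 39.6% (19.9% higher and 19.7% lower). The members' median log2 fold changes were 1.61 and 0.91, against 0.0276 and 0.0167 over all genes. Taking sets as replicates, edgeR called 12 and 4 members (1.93% and 0.496% of all genes) and DESeq2 called 21 and 15 (13.3% and 9.29%). The same 5 control libraries at 650 ppm stand in both comparisons, and the 6 at 400 ppm in both of the previous ones.

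Elevated CO2 in SI-9 roots changed 15 members, 8 upward and 7 downward, with 23.9% of all genes called (12% in each direction). In SI-12 roots it changed 12 members, 4 upward and 8 downward, with 34.1% of all genes called (17.6% upward and 16.5% downward). With sets as replicates, edgeR called 0 members in either, as of all genes (0% in both). DESeq2 called 6 and 5 members (7.59% and 5.02% of all genes), while 9 and 8 had an unadjusted p under 0.05 in edgeR. The SI-9 difference from control roots depended on CO2 for 20 members (28.2% of all genes) and the SI-12 difference for 21 (33.2%). The CO2 effect itself differed between SI-12 and SI-9 roots for 13 members (27.5%). In these 3 interaction tests on sets, edgeR called 0.334%, 0.0695% and 0% of all genes and DESeq2 6.85%, 4.71% and 4.14%. Over the 8 runs and 7 comparisons, 31 of 56 combinations had all members called in the same direction, 13 had some called and 12 had none. Shared directions are favoured by the rule, which chose the runs by r over the same libraries. In 1 combination members were called in opposite directions, the Eucgr.K00906.1 run under elevated CO2 in control roots.

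**Figure D3:**
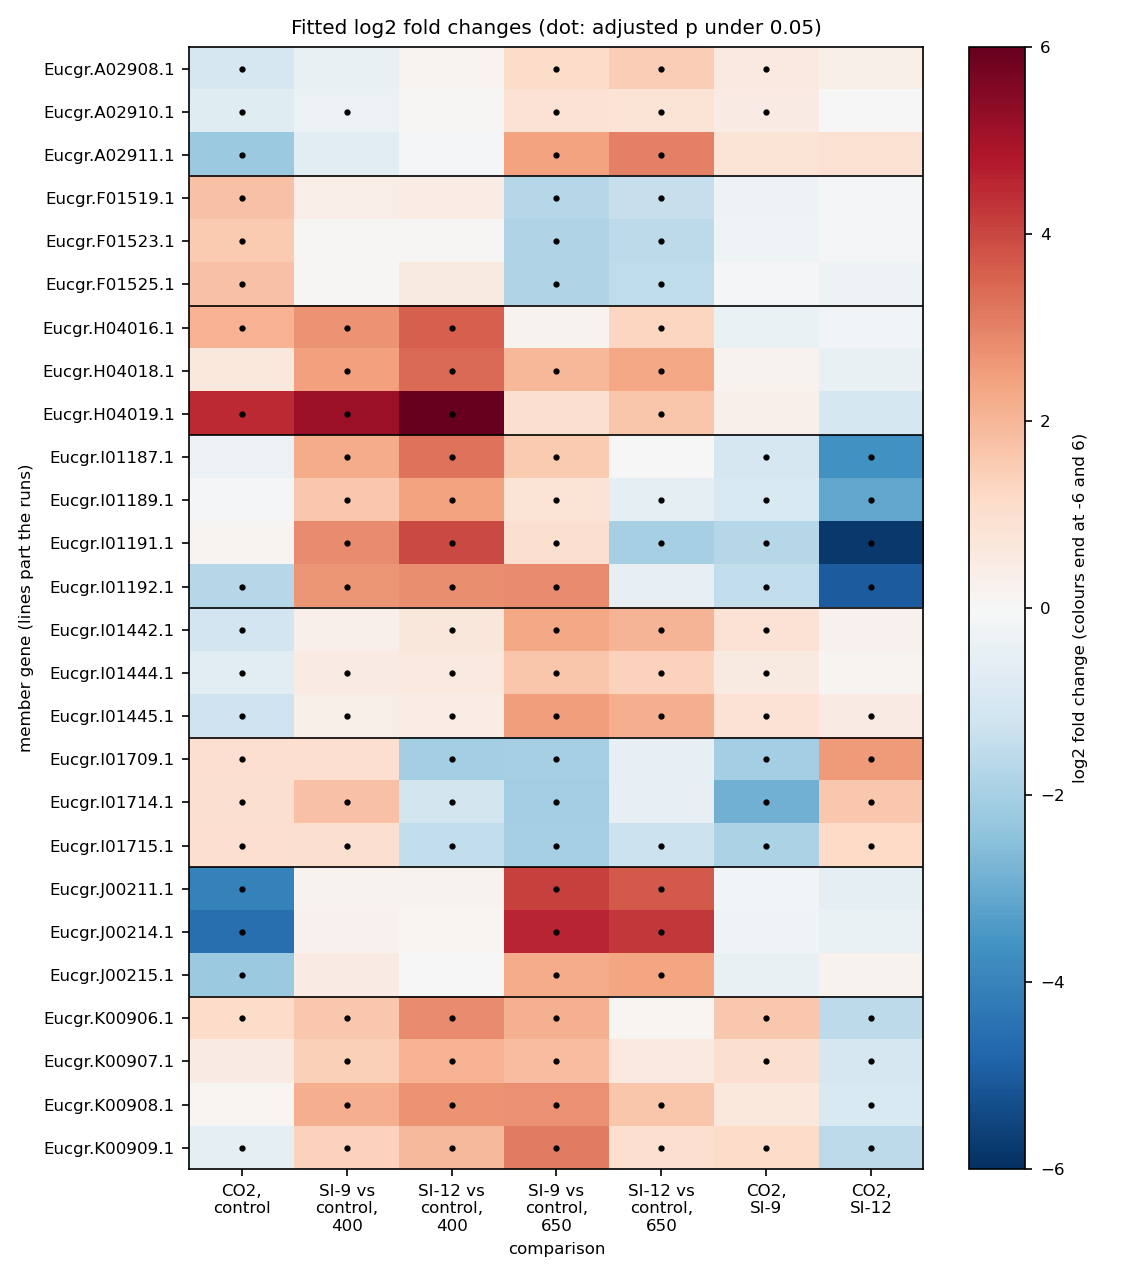
Fitted log2 fold changes of the 26 members (rows, grouped by run) in the 7 comparisons (columns). Red is higher in the group named first or at 650 ppm, blue is lower, colours end at -6 and 6, and a dot marks an adjusted p under 0.05 in edgeR's quasi-likelihood test. Members of a run mostly share 1 colour, and 49 of 56 combinations of run and comparison have fitted changes of the same sign. The choice of the runs by r over the same libraries favours this, so it is a description only.

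The Eucgr.J00211.1 run was low in control roots at 650 ppm and higher in every library of the other groups. Eucgr.J00211.1 stood at 4.22, 3.07, 5.91, 5.25 and 7.79 CPM in the 5 control libraries at 650 ppm, and its lowest, median and highest values in the 6 at 400 ppm were 78.4, 90.6 and 112 CPM. In SI-9 roots it stood at 114, 108 and 111 CPM at 400 ppm and at 122, 131 and 39.1 CPM at 650 ppm. In SI-12 roots the values were 115, 112 and 105 CPM at 400 ppm and 72.8, 73.4 and 74.5 CPM at 650 ppm. For Eucgr.J00211.1 the control libraries at 650 ppm stood far below the rest, of which SI-9 library 3 at 650 ppm was the lowest.

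Elevated CO2 lowered Eucgr.J00211.1 in control roots by 4.07 ± 0.26 on the log2 scale (standard error; edgeR adjusted p = 1.03e-10), a change that remained called with sets as replicates (adjusted p = 0.0308). Eucgr.J00214.1 fell by 4.54 ± 0.20 (edgeR adjusted p = 3.55e-13), from 68.7 ± 4.37 CPM (SD, n = 6) to 2.88 ± 0.660 CPM (n = 5). Eucgr.J00215.1 fell by 2.22 ± 0.25 (edgeR adjusted p = 3.91e-07), from 6.16 ± 0.705 to 1.26 ± 0.454 CPM. The 2 genes of high level thus fell much further than the third, and for all 3 the groups did not overlap. Here and below, non-overlap describes the values of the genes named, and its share over all genes is not given. The fall was present in both ranges of library numbers, at -4.68 and -4.53 for Eucgr.J00214.1.

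At 650 ppm all 3 genes were higher in mycorrhizal than in control roots, Eucgr.J00214.1 by 4.55 ± 0.21 with SI-9 and by 4.25 ± 0.21 with SI-12 (log2 ± SE; edgeR adjusted p = 1.28e-12 and 3.31e-12). Both calls of Eucgr.J00214.1 held with sets as replicates, at adjusted p = 0.0107 and 0.0234, as did the SI-9 calls of the other 2 genes. Taking sets as replicates, edgeR lost the SI-12 calls of Eucgr.J00211.1 and Eucgr.J00215.1 and the CO2 call of Eucgr.J00215.1 in control roots, and DESeq2 kept these 3. At 400 ppm no member of the run was called against control roots with either strain, and none was called for CO2 within SI-9 or SI-12 roots. In SI-9 roots at 650 ppm, Eucgr.J00214.1 stood at 93.9, 80.6 and 37.3 CPM and Eucgr.J00215.1 at 6.04, 5.53 and 7.56 CPM. Library 3 was thus the lowest for the first gene and the highest for the second.

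The Eucgr.I01442.1 run was lowest in the same group but changed less, and it was higher with fungus at both CO2 levels. The gene with the highest level per length of the run, Eucgr.I01444.1, stood at 81.1, 87.7, 113, 112 and 112 CPM in control roots at 650 ppm and had a lowest, median and highest of 149.7, 157 and 169.6 CPM at 400 ppm. In SI-9 roots the values were 229.8, 233 and 219.9 CPM at 400 ppm and 346, 354 and 289.7 CPM at 650 ppm. In SI-12 roots they were 239, 259 and 242 and 280.4, 281 and 283 CPM. Every mycorrhizal library exceeded every control library of either CO2 level.

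Elevated CO2 lowered the 3 genes in control roots by 1.14, 0.63 and 1.25 on the log2 scale, with edgeR adjusted p of 1.08e-07, 9.42e-07 and 1.39e-08. In SI-9 roots it raised them, by 0.87, 0.55 and 0.89 (edgeR adjusted p = 0.000261, 0.000421 and 0.000122). The CO2 change thus had opposite signs in control and SI-9 roots, and the difference between them was called for each member. Against control roots at 650 ppm the genes were higher by 1.66 to 2.49 with SI-9 and by 1.39 to 2.19 with SI-12. All 6 of these calls held with sets as replicates, with edgeR adjusted p from 0.0128 to 0.0407. The CO2 calls did not hold there in edgeR, while DESeq2 kept all 3 in control roots and those of Eucgr.I01442.1 and Eucgr.I01445.1 in SI-9 roots. At 400 ppm the differences were smaller, from 0.31 to 0.48 with SI-9, where Eucgr.I01442.1 was not called (edgeR adjusted p = 0.0953), and from 0.47 to 0.66 with SI-12. None of the calls at 400 ppm held with sets as replicates, in edgeR or DESeq2. The SI-9 call of Eucgr.I01445.1 at 400 ppm (edgeR adjusted p = 0.039) was lost without any 1 of the 3 SI-9 libraries, at adjusted p from 0.0802 to 0.134, and without any of control libraries 1 to 5, at adjusted p from 0.0535 to 0.0672. Within library numbers 1 to 12 it had 0.41 (adjusted p = 0.0886). Its call for CO2 in SI-12 roots (0.47, edgeR adjusted p = 0.0124) was lost without SI-12 library 3 at 400 ppm, at adjusted p = 0.0678. That call was also lost with sets as replicates in edgeR and DESeq2.

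In the Eucgr.A02908.1 run the control roots at 650 ppm were again lowest, except that SI-9 library 3 at 400 ppm held 2.90 CPM of Eucgr.A02911.1, inside their range. Eucgr.A02910.1 stood at 145, 140.0, 167, 163 and 168 CPM there and at 243 to 276 CPM in the 6 control libraries at 400 ppm. Eucgr.A02911.1 stood at 0.911, 1.17, 0.907, 1.79 and 3.00 CPM in the former and had a lowest, median and highest of 3.73, 7.94 and 11.1 CPM in the latter. Its control libraries 1 to 3 at 400 ppm, at 3.73 to 5.90 CPM, lay below libraries 4 to 6, at 9.99 to 11.1 CPM, which follows the near-identical sets. The control groups did not overlap for any of the 3 genes.

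Elevated CO2 lowered Eucgr.A02908.1, Eucgr.A02910.1 and Eucgr.A02911.1 in control roots by 0.98, 0.71 and 2.22 on the log2 scale (edgeR adjusted p = 8.57e-06, 5.98e-07 and 3.01e-05). At 650 ppm they were higher in SI-9 roots by 1.10, 0.86 and 2.40 and in SI-12 roots by 1.47, 0.82 and 3.02, all called. SI-9 roots at 650 ppm held 8.61, 8.26 and 9.36 CPM of Eucgr.A02911.1 and SI-12 roots 15.4, 11.3 and 14.3 CPM. The changes of this run were the same in direction as those of the Eucgr.I01442.1 run at 650 ppm. With sets as replicates none of these calls held in edgeR, and all 9 held in DESeq2. At 400 ppm only Eucgr.A02910.1 was called, lower in SI-9 roots (-0.34 ± 0.09, edgeR adjusted p = 0.0124). That call was lost without SI-9 library 1 (-0.28, adjusted p = 0.0931) or library 3 (adjusted p = 0.0648), and within library numbers 1 to 12 the value was -0.26 (adjusted p = 0.173). It was lost with sets as replicates in edgeR and DESeq2, as were the next 2 calls. In SI-9 roots elevated CO2 raised Eucgr.A02908.1 by 0.57 and Eucgr.A02910.1 by 0.50 (edgeR adjusted p = 0.0292 and 0.00202). The former call was lost without SI-9 library 1 or 3 at 400 ppm or library 1 or 2 at 650 ppm, at adjusted p from 0.0632 to 0.126. When edgeR was fitted to the SI-9 libraries alone, both calls were lost (adjusted p = 0.119 and 0.0831).

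The Eucgr.F01519.1 run showed the reverse pattern and was highest in control roots at 650 ppm. Eucgr.F01525.1 stood at 102, 115, 123, 115 and 110.4 CPM there, and its lowest, median and highest in control roots at 400 ppm were 22.9, 33.8 and 46.4 CPM. With SI-9 it stood at 30.3, 40.0 and 40.0 CPM at 400 ppm and at 40.5, 38.8 and 21.3 CPM at 650 ppm. In SI-12 roots the values were 53.3, 44.1 and 54.8 CPM at 400 ppm and 35.7, 38.6 and 49.5 CPM at 650 ppm. The 5 control libraries at 650 ppm were above all others, which lay between 21.3 and 54.8 CPM.

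Elevated CO2 raised Eucgr.F01519.1, Eucgr.F01523.1 and Eucgr.F01525.1 in control roots by 1.77, 1.59 and 1.74 on the log2 scale (edgeR adjusted p = 6.16e-08, 1.36e-06 and 1.19e-07). At 650 ppm they were below the control roots, at log2 fold changes of -1.70, -1.82 and -1.80 for SI-9 and of -1.40, -1.55 and -1.54 for SI-12. No member was called at 400 ppm with either strain or for CO2 within mycorrhizal roots. Taking sets as replicates, edgeR kept the SI-9 call of Eucgr.F01525.1 (adjusted p = 0.0478) and lost the others, and DESeq2 kept all 9. Among the control libraries at 400 ppm, libraries 1 to 3 held 39.7 to 46.4 CPM and libraries 4 to 6 held 22.9 to 27.8 CPM. Against the latter alone, within library numbers 13 to 24, Eucgr.F01525.1 was 0.95 higher in SI-12 roots at 400 ppm (adjusted p = 3.42e-08), where the fit over all libraries gave 0.52 (adjusted p = 0.0573).

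The Eucgr.H04016.1 run was lowest in control roots at 400 ppm and higher with either strain at that CO2 level. Eucgr.H04016.1 had a lowest, median and highest of 1.44, 2.90 and 3.83 CPM in control roots at 400 ppm and stood at 15.3, 15.6, 9.57, 9.20 and 8.89 CPM at 650 ppm. In SI-9 roots it stood at 10.9, 24.6 and 18.5 CPM at 400 ppm and 16.2, 13.5 and 11.4 CPM at 650 ppm. In SI-12 roots the values were 33.8, 38.9 and 29.3 and 31.8, 31.9 and 26.9 CPM. For this gene the SI-12 libraries were above all others, and the SI-9 libraries overlapped the control libraries at 650 ppm.

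At 400 ppm Eucgr.H04016.1 and Eucgr.H04018.1 were higher than in control roots by 2.70 ± 0.27 and 2.44 ± 0.45 with SI-9 and by 3.58 ± 0.26 and 3.401 ± 0.44 with SI-12 (log2 ± SE), with edgeR adjusted p between 4.51e-09 and 0.00054. Eucgr.H04019.1 was barely detected in the controls, with 0, 0, 4, 8, 10 and 12 reads in the 6 libraries, or up to 0.764 CPM. It stood at 5.01, 21.6 and 3.86 CPM in SI-9 roots and at 43.3, 43.5 and 39.0 CPM in SI-12 roots at 400 ppm, with SI-9 library 2 far above libraries 1 and 3. The edgeR changes of 5.14 and 7.16 on the log2 scale (adjusted p = 5.07e-06 and 2.89e-08) depend on how the near absence of reads is smoothed. The calls of all 3 genes with both strains held with sets as replicates in DESeq2 and not in edgeR.

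Elevated CO2 in control roots raised Eucgr.H04016.1 by 2.11 ± 0.24 and Eucgr.H04019.1 by 4.46 ± 0.57 (edgeR adjusted p = 5.49e-07 and 2.61e-06), while Eucgr.H04018.1 had a fitted value of 0.65 ± 0.41 (adjusted p = 0.205). For Eucgr.H04018.1 the control sets at 400 ppm differed, with 0.729 to 0.995 CPM in libraries 1 to 3 and 3.62 to 5.60 CPM in libraries 4 to 6. Against the former alone, within library numbers 1 to 12, its SI-9 difference at 400 ppm was 4.11. Its fitted value was 1.99 within library numbers 1 to 12 and -0.0028 within numbers 13 to 24. At 650 ppm, SI-12 roots were higher for all 3 genes, by 1.30 to 2.30, and SI-9 roots for Eucgr.H04018.1 alone (2.00 ± 0.45, edgeR adjusted p = 0.00174). The SI-12 call of Eucgr.H04019.1 (1.65, adjusted p = 0.0131) was lost without SI-12 library 3 (adjusted p = 0.0592). No member was called for CO2 within SI-9 or SI-12 roots. With sets, edgeR kept none of these CO2 and 650 ppm calls, and DESeq2 kept both CO2 calls and the SI-9 call of Eucgr.H04018.1 but none of the 3 SI-12 calls at 650 ppm.

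The Eucgr.K00906.1 run, of 4 genes with consecutive numbers, was low in all control roots and highest in SI-9 roots at 650 ppm. Eucgr.K00908.1 had a lowest, median and highest of 1.95, 2.67 and 4.39 CPM in control roots at 400 ppm and stood at 2.07, 2.12, 3.59, 3.33 and 3.21 CPM at 650 ppm. With SI-9 it stood at 10.7, 18.2 and 10.1 CPM at 400 ppm and at 20.6, 19.2 and 20.4 CPM at 650 ppm. In SI-12 roots the values were 18.6, 19.1 and 18.5 CPM at 400 ppm and 9.03, 11.6 and 9.18 CPM at 650 ppm. For Eucgr.K00908.1 every mycorrhizal library exceeded every control library, and the 2 strains stood in opposite order at the 2 CO2 levels. Each other gene of the run had at least 1 mycorrhizal library below its highest control library. Eucgr.K00906.1 stood at 3.87 CPM in SI-9 library 1 at 400 ppm and at 6.29 CPM in control library 4 at 650 ppm.

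At 400 ppm the 4 genes were higher by 1.39 to 2.20 with SI-9 and by 1.96 to 2.82 with SI-12 on the log2 scale, all called. At 650 ppm they were higher by 1.87 to 3.11 with SI-9, and these 4 calls held with sets as replicates in edgeR, with adjusted p from 0.0283 to 0.0415. With SI-12 at 650 ppm among the 4 genes Eucgr.K00908.1 (1.69, edgeR adjusted p = 1e-05) and Eucgr.K00909.1 (0.99, adjusted p = 0.0075) were called. Elevated CO2 lowered all 4 genes in SI-12 roots, by 0.93 to 1.58. In SI-9 roots it raised Eucgr.K00906.1, Eucgr.K00907.1 and Eucgr.K00909.1, by 1.63, 0.96 and 1.12. With sets, edgeR kept none of these CO2 calls and none at 400 ppm or with SI-12 at 650 ppm. DESeq2 kept all 8 at 400 ppm, Eucgr.K00908.1 with SI-12 at 650 ppm, and Eucgr.K00906.1 alone for CO2 in either strain. For these 3 genes the CO2 effects of the strains had opposite signs, and the difference was called for all 4 genes of the run, at -1.56 to -3.21 (edgeR adjusted p = 0.00347 and 6e-06). Over sets edgeR kept none of these 4 differences and DESeq2 kept all but that of Eucgr.K00908.1. The SI-9 calls of Eucgr.K00907.1 and Eucgr.K00909.1 were lost without SI-9 library 3 at 400 ppm (adjusted p = 0.0682 and 0.066), and the latter also without library 1 (adjusted p = 0.0538).

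In control roots elevated CO2 raised Eucgr.K00906.1 by 1.12 ± 0.21 (edgeR adjusted p = 0.000202) and lowered Eucgr.K00909.1 by 0.60 ± 0.24 (adjusted p = 0.0465). Within library numbers 1 to 12 the first value was 0.83 (adjusted p = 0.0737). Over sets the call of Eucgr.K00906.1 was kept by DESeq2 and not by edgeR, and that of Eucgr.K00909.1 was lost in both. The call of Eucgr.K00909.1 lies close to the threshold. It was lost without any of control libraries 1 to 3 at 400 ppm or 1, 2 or 4 at 650 ppm, at adjusted p from 0.0536 to 0.123, and its direction differed between the ranges of library numbers, at -1.50 in 1 to 12 and 0.11 in 13 to 24. The control sets at 400 ppm differed for this gene, with 5.15 to 5.56 CPM in libraries 1 to 3 and 2.73 to 3.401 CPM in libraries 4 to 6.

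The Eucgr.I01187.1 run was higher in mycorrhizal roots at 400 ppm and fell steeply with CO2 in SI-12 roots. Eucgr.I01191.1 had a lowest, median and highest of 7.52, 8.90 and 10.9 CPM in control roots at 400 ppm and stood at 6.71, 5.94, 11.99, 13.2 and 10.5 CPM at 650 ppm. In SI-9 roots it stood at 50.6, 93.6 and 54.1 CPM at 400 ppm and at 11.6, 12.3 and 35.3 CPM at 650 ppm. In SI-12 roots the values were 152, 145 and 142 CPM at 400 ppm and 2.76, 2.41 and 2.71 CPM at 650 ppm. SI-12 roots thus held both the highest and the lowest values of this gene, and SI-9 library 2 at 400 ppm and library 3 at 650 ppm were each the highest of their group.

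At 400 ppm the 4 genes were higher than in control roots by 1.60 to 2.84 with SI-9 and by 2.41 to 3.97 with SI-12 on the log2 scale, all called with edgeR adjusted p of at most 0.000135, and no library overlapped. Elevated CO2 in SI-12 roots lowered Eucgr.I01187.1, Eucgr.I01189.1, Eucgr.I01191.1 and Eucgr.I01192.1, with log2 fold changes of -3.61 ± 0.30, -3.12 ± 0.24, -5.80 ± 0.41 and -4.99 ± 0.63 (± SE; edgeR adjusted p = 2.21e-08, 5.77e-09, 2.06e-09 and 4.35e-06). The group means of Eucgr.I01189.1 were 304 ± 7.44 and 35.3 ± 0.946 CPM (SD, n = 3 each). In SI-9 roots the 4 genes also fell, by 0.92 to 1.73. The fall was larger in SI-12 roots for each gene, by 2.20 to 4.07, a difference that was called for all 4 (edgeR adjusted p between 6.74e-06 and 0.00213). With sets as replicates, edgeR kept none of the SI-12 calls at 400 ppm or over CO2, and DESeq2 kept all 8. Of the SI-9 calls, edgeR likewise kept none, and DESeq2 kept all 4 at 400 ppm and Eucgr.I01191.1 alone over CO2. Of the 4 differences between the strains, edgeR kept none and DESeq2 all but that of Eucgr.I01192.1.

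The SI-9 values of this run depended on single libraries. The fall of Eucgr.I01192.1 with CO2 (edgeR adjusted p = 0.0378) was lost without any of the 3 libraries at 400 ppm or without library 1 or 2 at 650 ppm, at adjusted p from 0.0633 to 0.155. That of Eucgr.I01187.1 (-1.02) was lost without library 2 at 400 ppm or library 1 or 2 at 650 ppm, at adjusted p from 0.0587 to 0.0632. When edgeR was fitted to the SI-9 libraries alone, the falls of all 4 genes lost their calls, at adjusted p from 0.0551 to 0.204. Leaving out library 3 at 650 ppm instead enlarged the falls of Eucgr.I01187.1, Eucgr.I01189.1 and Eucgr.I01192.1 to -1.67, -1.42 and -2.88, and reduced the difference between the strains to -2.12 for Eucgr.I01192.1. Library 3 at 650 ppm held 16.5 CPM of Eucgr.I01192.1, against 2.74 and 2.85 CPM in libraries 1 and 2. Against control roots at 650 ppm, SI-9 roots were higher for all 4 genes, by 0.80 to 2.86. Without library 3 the calls of Eucgr.I01189.1 (0.30, adjusted p = 0.0804) and Eucgr.I01191.1 (0.24, adjusted p = 0.468) were lost, and those of Eucgr.I01187.1 and Eucgr.I01192.1 remained, at 0.90 and 1.48. Within library numbers 1 to 12 the SI-9 values at 650 ppm were 0.57 for Eucgr.I01189.1 (adjusted p = 0.21), 1.57 for Eucgr.I01191.1 (adjusted p = 0.0353) and 2.24 for Eucgr.I01192.1 (adjusted p = 0.057), so that the first and the last call were lost there. In control roots elevated CO2 lowered Eucgr.I01192.1 alone (-1.69 ± 0.43, edgeR adjusted p = 0.00342), with -0.76 (adjusted p = 0.495) within library numbers 1 to 12 and -2.37 within 13 to 24. SI-12 roots at 650 ppm were lower for Eucgr.I01189.1 (-0.59, edgeR adjusted p = 0.026) and Eucgr.I01191.1 (-1.98, adjusted p = 0.000198). The former call was lost without any SI-12 library or without control library 1 or 2, at adjusted p from 0.0509 to 0.0722. With sets, edgeR kept none of the calls at 650 ppm or for CO2 in control roots, and DESeq2 kept Eucgr.I01187.1 and Eucgr.I01192.1 with SI-9 and Eucgr.I01191.1 with SI-12.

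The Eucgr.I01709.1 run stood higher in SI-9 than in SI-12 roots at 400 ppm, a difference that was not tested directly. Its CO2 effect differed between roots with SI-9 and with SI-12, where strain and range of library numbers cannot be told apart. Eucgr.I01715.1 had a lowest, median and highest of 21.7, 30.3 and 45.5 CPM in control roots at 400 ppm and stood at 58.8, 54.6, 70.6, 69.7 and 65.0 CPM at 650 ppm. With SI-9 it stood at 62.2, 49.8 and 75.05 CPM at 400 ppm and at 18.2, 15.05 and 17.01 CPM at 650 ppm. In SI-12 roots the values were 11.5, 12.7 and 11.2 CPM at 400 ppm and 30.7, 22.9 and 28.7 CPM at 650 ppm. SI-9 roots were thus high at 400 and low at 650 ppm, and SI-12 roots the other way round, without overlap between the CO2 levels of either strain.

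At 400 ppm Eucgr.I01714.1 and Eucgr.I01715.1 were higher in SI-9 roots than in control roots, by 1.78 ± 0.36 and 0.94 ± 0.19 (log2 ± SE; edgeR adjusted p = 0.00128 and 0.000958), and Eucgr.I01709.1 had 1.01 ± 0.39 (adjusted p = 0.0667). In SI-12 roots all 3 were lower, Eucgr.I01709.1 by 2.04, Eucgr.I01714.1 by 1.11 and Eucgr.I01715.1 by 1.49. Elevated CO2 lowered the 3 genes in SI-9 roots by 2.02, 2.88 and 1.89 and raised them in SI-12 roots by 2.55, 1.60 and 1.22, all called. The CO2 effect in SI-12 roots exceeded that in SI-9 roots by 4.57 ± 0.71, 4.48 ± 0.66 and 3.10 ± 0.32 (edgeR adjusted p = 7.57e-05, 4.09e-05 and 1e-06), which was lost with sets as replicates in edgeR and held in DESeq2. At 650 ppm SI-9 roots were lower than control roots for all 3 genes, by 1.97 to 2.08, and SI-12 roots for Eucgr.I01715.1 (-1.30, edgeR adjusted p = 4.38e-05). Over sets, the CO2 calls in SI-12 roots were lost for all 3 genes in edgeR and DESeq2. Those in SI-9 roots were lost in edgeR, and DESeq2 kept Eucgr.I01714.1 and Eucgr.I01715.1. At 400 ppm edgeR kept none and DESeq2 kept Eucgr.I01715.1 with SI-12. At 650 ppm edgeR kept Eucgr.I01715.1 with SI-9, and DESeq2 also Eucgr.I01714.1 with SI-9 and Eucgr.I01715.1 with SI-12.

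The control sets differed in this run. At 400 ppm control libraries 1 to 3 held 12.7 to 13.999 CPM of Eucgr.I01714.1 and libraries 4 to 6 held 4.20 to 4.30 CPM. Against the latter alone, SI-12 roots at 400 ppm differed by -0.04 (adjusted p = 0.883) for this gene, by -1.22 for Eucgr.I01709.1 and by -1.03 for Eucgr.I01715.1. Against libraries 1 to 3 alone, SI-9 roots at 400 ppm differed by 1.18 for Eucgr.I01714.1 and by 0.59 for Eucgr.I01715.1. The SI-12 call of Eucgr.I01714.1 (edgeR adjusted p = 0.0444) was also lost without any of control libraries 1 to 3 or any of the 3 SI-12 libraries, at adjusted p from 0.0659 to 0.183. Elevated CO2 in control roots raised the 3 genes by 0.99, 0.98 and 1.03 over all libraries. Within library numbers 1 to 12 the values were 0.19, 0.06 and 0.54, and within 13 to 24 they were 1.98, 2.21 and 1.57. The rise was thus called in the second range for all 3 genes and in the first for Eucgr.I01715.1 alone. Over sets it was lost for all 3 genes in edgeR and kept for Eucgr.I01715.1 in DESeq2. Without control library 4 at 650 ppm the call of Eucgr.I01709.1 was lost (adjusted p = 0.0591), as was that of Eucgr.I01714.1 for CO2 in SI-12 roots without SI-12 library 2 at 400 ppm (adjusted p = 0.0546).

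**Figure D4:**
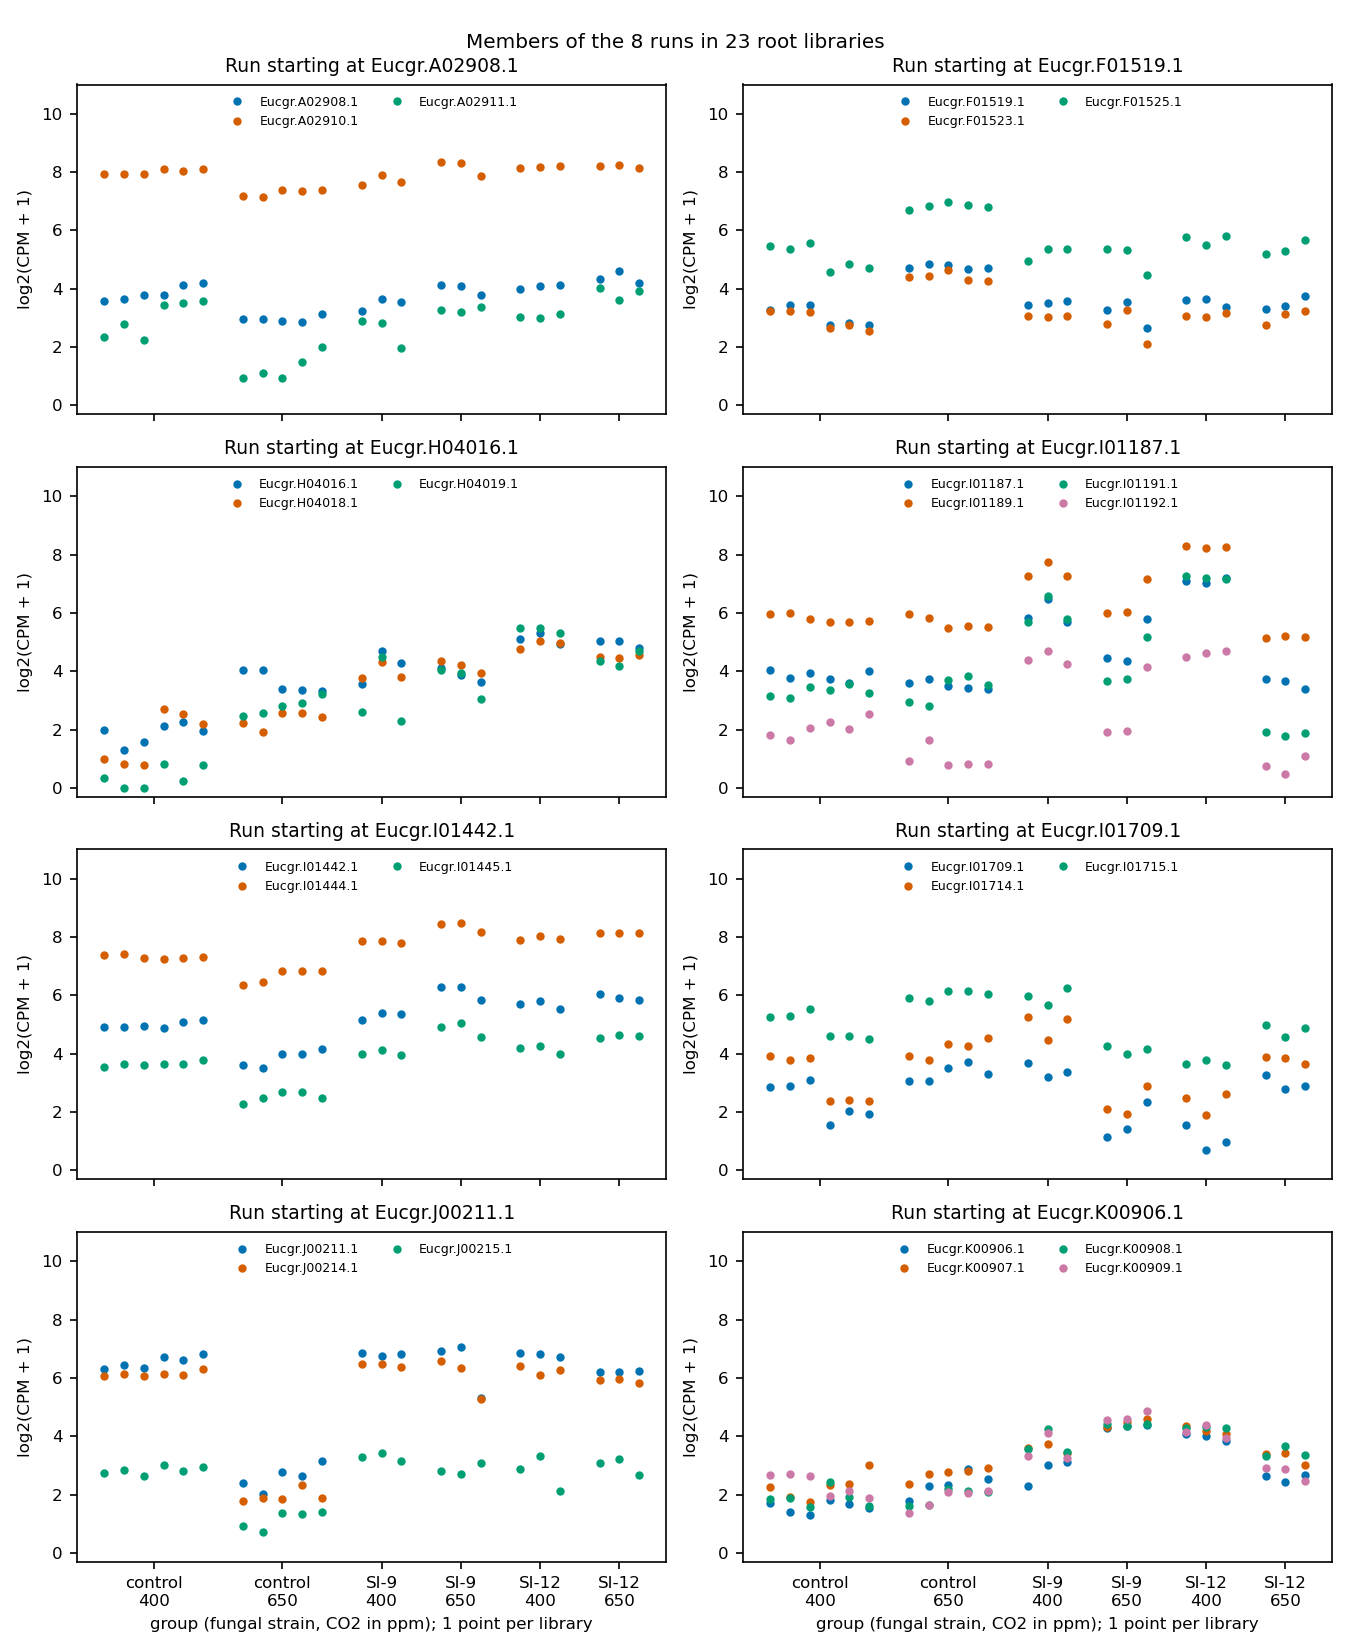
Levels of the 26 members as log2(CPM + 1) in each of the 23 libraries (1 point per library and gene), with a panel per run and libraries grouped by fungal strain and CO2 in ppm. The control libraries at 650 ppm hold 3.07 to 7.79 CPM of Eucgr.J00211.1 and are the lowest points of that gene, while they are the highest points of each gene in the panel that starts at Eucgr.F01519.1.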

How the data were processed

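Tables of 23 RNA-seq libraries were used, grouped by the labels. Each lists, per the file headers, gene length, uniquely and in total assigned gene reads (counts), and RPKM. The deposited counts are whole numbers and were tested as they stand. The authors' RPKM values were recomputed from total reads and length to within 1% for all 836648 values. Levels per length were computed from CPM and gene length, in CPM per 1000 bases, and not taken from those values. The aligner, the counting tool, the build and the use of strand in counting were not given in the sources used here.

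CPM was total reads over the library's sum, times 1000000, with Eucgr.B01584.1, which took 0.157% to 16.2% of reads, left out. The count tests kept that gene. The members and lists were chosen with earlier results of these data known. Runs were described by the rules for largest, tightest, most and least variable, most abundant and most changed, which here name all 8, and the 3 most similar genes elsewhere were taken by r with the mean of each run of 4 genes. Genes inside or beside runs, and those most like the Eucgr.J00211.1 and Eucgr.H04016.1 runs, were named after their values were seen.

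edgeR 4.0.16 (TMM, filterByExpr, quasi-likelihood, in R 4.3.3) fitted 6 group means over all libraries, and p-values were adjusted over 27386 genes at 0.05. The run search and the edgeR test were first tested on simulated data. Libraries whose CV beyond counting noise was under 0.2, over genes with at least 100 reads in the pair, were joined as a set. DESeq2 1.42.0, other scalings and filters, unique reads, a replicate block, library-number ranges and leaving out each library were tried as alternatives. DESeq2 on sets and leaving out both SI-9 libraries that stood apart were added after seeing the data. Python 3.11.15 with pandas 2.3.3, numpy 2.4.6 and matplotlib 3.10.9 did the rest. No gene sequence was matched.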

Additional observations from a re-analysis of the deposited data

Results flagged for a closer look

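Some control libraries stood far from the rest of their group for a member. Of 52 groups of 5 or 6 control libraries tested by Dixon's rule, 4 held such a library, where chance flags about 1 in 20. Control library 2 at 650 ppm held 2.12 CPM of Eucgr.I01192.1 and was the highest of 5. Eucgr.J00214.1 was highest at 77.1 CPM in control library 6 at 400 ppm and at 4.04 CPM in control library 4 at 650 ppm. Eucgr.K00908.1 was highest at 4.39 CPM in control library 4 at 400 ppm.

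Effects that differed between conditions were tested with interaction terms in edgeR, 3 for each of the 26 members, and 54 of the 78 had an adjusted p under 0.05. Over all genes tested, 28.2%, 33.2% and 27.5% were called in these 3 tests, in the order below. The rule favours genes that vary, so nothing about neighbours is read from the counts. Shares on sets are given with the interaction tests above, and those with an unadjusted p under 0.05 are not given. The first interaction subtracts the log2 difference between SI-9 and control roots at 400 ppm from that at 650 ppm. It was 3.90, 4.27 and 1.77 for Eucgr.J00211.1, Eucgr.J00214.1 and Eucgr.J00215.1, 2.01, 1.18 and 2.14 for Eucgr.I01442.1, Eucgr.I01444.1 and Eucgr.I01445.1, and 1.55, 1.20 and 3.04 for Eucgr.A02908.1, Eucgr.A02910.1 and Eucgr.A02911.1. These 3 runs had their lowest levels in control roots at 650 ppm. It was -2.09, -1.87 and -1.87 for Eucgr.F01519.1, Eucgr.F01523.1 and Eucgr.F01525.1, -3.02, -3.86 and -2.91 for Eucgr.I01709.1, Eucgr.I01714.1 and Eucgr.I01715.1, and -2.51 and -4.17 for Eucgr.H04016.1 and Eucgr.H04019.1. Single members of the other runs followed, with -0.80 and -1.87 for Eucgr.I01189.1 and Eucgr.I01191.1 and 1.72 for Eucgr.K00909.1. With near-identical sets as replicates, 1 of these 20 calls was kept by edgeR, that of Eucgr.J00214.1, and 16 by DESeq2. The call of Eucgr.I01189.1 was lost without single SI-9 or control libraries, at edgeR adjusted p from 0.0522 to 0.113, and without SI-9 library 3 at 650 ppm its value was -1.30. Eucgr.H04019.1 stood at -2.68 without both SI-9 libraries that stood apart, and Eucgr.K00909.1 at 2.62 within library numbers 1 to 12. In that range the calls of Eucgr.I01189.1 (-0.94, edgeR adjusted p = 0.130) and Eucgr.I01191.1 (-1.36, adjusted p = 0.138) were lost.

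The same difference for SI-12 roots was 3.48, 4.15 and 2.41 for Eucgr.J00211.1, Eucgr.J00214.1 and Eucgr.J00215.1, 1.39, 0.81 and 1.72 for Eucgr.I01442.1, Eucgr.I01444.1 and Eucgr.I01445.1, and 1.32, 0.73 and 3.12 for Eucgr.A02908.1, Eucgr.A02910.1 and Eucgr.A02911.1. The sign was the same as for SI-9 in these 9 genes, and both differences share the control libraries. It was -1.83, -1.63 and -2.05 for Eucgr.F01519.1, Eucgr.F01523.1 and Eucgr.F01525.1 and -2.29 and -5.50 for Eucgr.H04016.1 and Eucgr.H04019.1. It was -3.26, -2.996, -5.94 and -3.30 for Eucgr.I01187.1, Eucgr.I01189.1, Eucgr.I01191.1 and Eucgr.I01192.1 and -2.69, -1.50 and -1.02 for Eucgr.K00906.1, Eucgr.K00907.1 and Eucgr.K00908.1. No member of the Eucgr.I01709.1 run was called here, and the call of Eucgr.K00908.1 was lost without SI-12 library 1 at 650 ppm (edgeR adjusted p = 0.0515). With sets as replicates, 0 of these 21 calls were kept by edgeR, where 19 members had an unadjusted p under 0.05, and 13 by DESeq2.

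The CO2 effect in SI-12 roots minus that in SI-9 roots was 4.57, 4.48 and 3.10 for Eucgr.I01709.1, Eucgr.I01714.1 and Eucgr.I01715.1. It was -2.59, -2.20, -4.07 and -3.50 for Eucgr.I01187.1, Eucgr.I01189.1, Eucgr.I01191.1 and Eucgr.I01192.1, and -3.21, -1.95, -1.56 and -2.69 for Eucgr.K00906.1, Eucgr.K00907.1, Eucgr.K00908.1 and Eucgr.K00909.1. The last 2 calls were -0.47 for Eucgr.A02910.1 and -0.62 for Eucgr.I01442.1. Both were lost on leaving out single libraries, at edgeR adjusted p from 0.0536 to 0.0822. Without both SI-9 libraries that stood apart the former was -0.71. With sets as replicates, 0 of these 13 calls were kept by edgeR, where 11 members had an unadjusted p under 0.05, and 9 by DESeq2.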

How the results depend on the processing

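The rule's count of runs and genes moved with its settings. It found 21 runs with 69 genes at a minimum of 1 CPM and 5 with 15 at 10 CPM, 20 with 64 without the uniqueness minimum and 1 with 3 at 0.99. It found 21 runs with 68 genes at r of at least 0.80, 5 with 17 at 0.90, 5 with 16 by Spearman correlation, and 1 with 4 when ID numbers had to follow directly. Set means gave 15 runs with 49 genes, library numbers 1 to 12 gave 26 with 82, and 13 to 24 gave 43 with 141, from fewer points. With group means removed it found 6 runs with 18 genes, none of them a member. Without any 1 library it found 8 to 11 runs with 26 to 35 genes, each time with all 26 members. The highest counts, 11 runs and 35 genes, came without SI-9 library 3 at 650 ppm. TMM or DESeq2 scaling each gave 9 runs with 29 genes.

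Counts of members called fell with sets as replicates, to 2 for CO2 in control roots, 0 in SI-9 and 0 in SI-12 roots at 400 ppm, 12 and 4 at 650 ppm, and 0 for CO2 in either strain, with far fewer points. DESeq2 on sets called 6 for CO2 in SI-9 roots and 5 in SI-12 roots, and edgeR fitted to the compared groups alone 9 and 20. Without any 1 library the counts were 18 to 21 for CO2 in control roots, 14 to 16 and 16 to 17 for SI-9 and SI-12 at 400 ppm, 22 to 24 and 18 to 20 at 650 ppm, and 11 to 15 and 11 to 12 for CO2 in SI-9 and SI-12 roots. The replicate block gave 21, 16, 17, 24, 21, 16 and 13 calls in the same order. Shares of all genes called are not given for the fits to compared groups alone, without 1 library or with the block. Those counts show only how the calls of members moved. Libraries with the same number, from 1 to 3, were compared by their deviations from group means. Of 21 pairs, 1 had r over 0.1 (r from -0.0556 to 0.108). Control libraries 4 to 6 at 400 ppm and 4 and 5 at 650 ppm were in no pair. Control deviations also carry the split into sets, so the check does not settle whether the numbers pair libraries. The change of Eucgr.K00909.1 with CO2 in control roots reversed to 0.11 within library numbers 13 to 24, and the cause was not tested. Of 3822 recomputed values of the 178 called changes, 3511 kept direction and call, 310 kept direction alone and 1 reversed. Scaling moved the median of all genes by at most 0.032 (log2). Levels below 3 reads, 0.0995 to 0.683 CPM by library, are not resolved at this depth.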
